A study of Mus musculus with 16 samples.

Results

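The pluripotency network genes described here are 10 endogenous genes that no transgene of the experiment supplied: *Sall4*, *Nanog*, *Esrrb*, *Lin28a*, *Zfp42*, *Tdgf1*, *Dppa5a*, *Dppa4*, *Utf1* and *Alpl*. They were chosen by name from the 18990 genes of the table, and each was found there once. All libraries came from wild-type BL6 primary mouse embryonic fibroblasts (MEFs) that carried a doxycycline-inducible cassette of Oct4, Sox2, Klf4 and c-Myc (OSKM) and the rtTA activator, both delivered by lentivirus. The cells were transfected with a pool of siRNAs against *Wdr5* (siWdr5), *Brca1* (siBrca1) or *Bard1* (siBard1), or with a non-targeting pool (nt control), replated 1 day later, and reprogrammed with doxycycline in medium with serum, a GSK3 inhibitor, a TGF-beta receptor inhibitor, ascorbic acid and LIF. RNA was collected at day 3 and day 6, with 2 libraries from independent experiments in each of the 8 groups, 16 in all. Every group, the nt control included, therefore carried the cassette and received the same inducer and inhibitors, and no uninduced MEFs were compared here. The cultures were mixed populations sequenced in bulk, and how many embryos each MEF preparation pooled is not given in the sources used here.

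Pluripotent cells of the mouse embryo hold a network of transcription factors that activate one another and their shared targets, and cells forced to express OSKM reach pluripotency only when their own copies of these genes become active. Some of them, such as *Sall4*, are known to be activated early in reprogramming, and others late, when the cells become independent of the transgenes. WDR5 is a subunit of complexes that methylate histone H3 at lysine 4, and BRCA1 and BARD1 form a ubiquitin ligase that acts in DNA repair.

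By role, the 10 genes fall into 5 kinds. *Sall4*, *Nanog*, *Esrrb*, *Zfp42* (which encodes REX1) and *Utf1* encode nuclear factors of embryonic stem cells: SALL4 and REX1 are zinc finger proteins, NANOG is a homeodomain protein, ESRRB is an orphan nuclear receptor, and UTF1 is bound to chromatin. *Lin28a* encodes an RNA-binding protein that blocks the maturation of let-7 microRNAs. *Tdgf1* encodes CRIPTO, a cell-surface co-receptor for NODAL. *Dppa4* and *Dppa5a* are named for their expression in pluripotent cells, *Dppa4* encoding a nuclear protein with a SAP domain and *Dppa5a* a protein with an RNA-binding KH-like domain. *Alpl* encodes tissue-nonspecific alkaline phosphatase, whose activity is a classical stain for pluripotent colonies and which bone-forming cells also make.

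Promoter sequence was looked at because most of these genes were silent or nearly so at day 3 and expressed at day 6. The OSKM cassette was induced before both days, so its presence does not separate them. RefSeq windows on GRCm38.p6, from 250 bases before to 50 bases after a transcription start, were available for 7 of the 10 genes (10 windows), and *Sall4*, *Dppa5a* and *Dppa4* had none. *Nanog* had 2 overlapping windows, of which the upstream one is printed. The 4 windows show the upstream element of *Nanog*, the 2 partial matches of *Zfp42* and *Lin28a*, and *Tdgf1*, the member whose levels were most like those of *Nanog*. They lie at chr6:122707239-122707538 (plus strand, *Nanog*), chr8:43306960-43307259 (minus strand, *Zfp42*), chr4:134018767-134019066 (minus strand, *Lin28a*) and chr9:110946109-110946408 (minus strand, *Tdgf1*). Each is written 5′ to 3′ on the strand of its gene, and capitals mark matches to an octamer core bound by OCT4 (TTTGCAT or its reverse complement ATGCAAA) or to a SOX core (ACAATG or its reverse complement CATTGT), which do not overlap.
Nanog: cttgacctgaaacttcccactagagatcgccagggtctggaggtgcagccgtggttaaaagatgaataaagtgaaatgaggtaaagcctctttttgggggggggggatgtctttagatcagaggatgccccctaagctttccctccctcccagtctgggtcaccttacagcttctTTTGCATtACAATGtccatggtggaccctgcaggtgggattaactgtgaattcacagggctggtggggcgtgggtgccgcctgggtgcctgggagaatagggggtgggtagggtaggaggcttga
Zfp42: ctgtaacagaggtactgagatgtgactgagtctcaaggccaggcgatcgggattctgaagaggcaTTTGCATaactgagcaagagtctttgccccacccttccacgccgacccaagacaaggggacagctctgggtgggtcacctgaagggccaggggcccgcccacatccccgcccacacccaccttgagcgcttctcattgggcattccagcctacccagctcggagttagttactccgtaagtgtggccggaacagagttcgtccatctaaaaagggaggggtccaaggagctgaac
Lin28a: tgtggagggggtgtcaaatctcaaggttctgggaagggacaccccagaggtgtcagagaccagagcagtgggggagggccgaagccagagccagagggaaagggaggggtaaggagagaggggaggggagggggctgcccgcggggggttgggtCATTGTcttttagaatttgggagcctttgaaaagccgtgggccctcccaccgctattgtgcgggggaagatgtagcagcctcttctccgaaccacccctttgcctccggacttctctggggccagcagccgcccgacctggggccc
Tdgf1: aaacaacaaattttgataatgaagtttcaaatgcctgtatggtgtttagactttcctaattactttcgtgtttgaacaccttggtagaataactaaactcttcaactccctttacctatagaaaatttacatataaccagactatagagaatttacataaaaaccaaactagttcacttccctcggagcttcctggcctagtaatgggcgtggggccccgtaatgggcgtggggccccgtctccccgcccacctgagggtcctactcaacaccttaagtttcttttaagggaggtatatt
In *Nanog* the octamer match began at −75 and the SOX match at −67, counted in bases from the start site, with 1 base between them. *Zfp42* had an octamer match at −185 and *Lin28a* a SOX match on the reverse strand at −96, while the windows of *Tdgf1*, *Utf1* and *Alpl* had neither and one of the 2 *Esrrb* windows had a SOX match at 32. Among all 32817 windows of the same length, 4.63% held the octamer core, 12.6% the SOX core and 0.814% both. These matches describe letters in the windows and do not show binding.

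The depth behind the values was read back from the deposited log2 CPM (reads relative to library size), which returned whole reads. The libraries held 14198918 to 17393793 reads at day 3 and 11169738 to 26832534 at day 6, the deepest being siWdr5 replicate 2 at day 6. CPM in the text is reads over the scaled library size, without the prior, and log2-fold changes and tests use the deposited log2 CPM, which include a small prior that puts a gene with 0 reads at 0.136 CPM. A floor of 3 reads corresponds to 0.156 to 0.221 CPM in a day 3 library and 0.115 to 0.260 CPM in a day 6 library, and floors and counting intervals cover counting error only. As for the labelled cell type, all 13 fibroblast markers had reads in every library, among them *Thy1* and *Col1a1*. At day 3 each siRNA lowered its own transcript, with a log2-fold change of −1.31 for *Wdr5*, −1.57 for *Brca1* and −0.62 for *Bard1* (limma, adjusted p = 3.02e-06, 7.9e-05 and 0.0422), but the falls were not particular to the target. *Wdr5* was also lower in siBrca1 (−0.87) and siBard1 (−0.48), *Brca1* in siWdr5 (−0.86), and *Bard1* in siWdr5 (−1.03) and siBrca1 (−1.38), all of which passed. At day 6 the same changes were −0.27, 0.01 and 0.11 and none passed (adjusted p = 0.189, 0.988 and 0.853). In the nt control itself *Wdr5*, *Brca1* and *Bard1* changed by −0.47, −1.09 and −1.24 from day 3 to day 6 (limma adjusted p = 0.00539, 0.000709 and 0.000187). A difference between groups was taken as having passed at an adjusted p under 0.05 over the 14028 genes whose log2 CPM averaged 0 or more, which left 7 of the 10 genes for testing and put *Zfp42*, *Dppa4* and *Utf1* below the filter.

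At day 3 the network was close to silent apart from *Alpl* and *Sall4*. *Alpl* had 20.2 and 20.0 CPM in the nt control and *Sall4* had 8.24 and 6.73 CPM, the order being that of replicate 1 and replicate 2 here and below. The other 8 genes together had 26 and 13 reads in the nt control, 8 and 4 in siWdr5, 10 and 3 in siBrca1, and 3 and 13 in siBard1. Between 3 and 6 of the 10 genes had no read in a day 3 library, while every gene had reads in every day 6 library. *Zfp42* and *Dppa4* had 0 reads in all 8 day 3 libraries, and *Dppa5a* had a single read in siBard1 replicate 1. At day 6 the same 8 genes held 957 to 5343 reads per library, at 36.5 CPM in siWdr5 replicate 2 and 463 CPM in siBrca1 replicate 1.

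**Figure D1:**
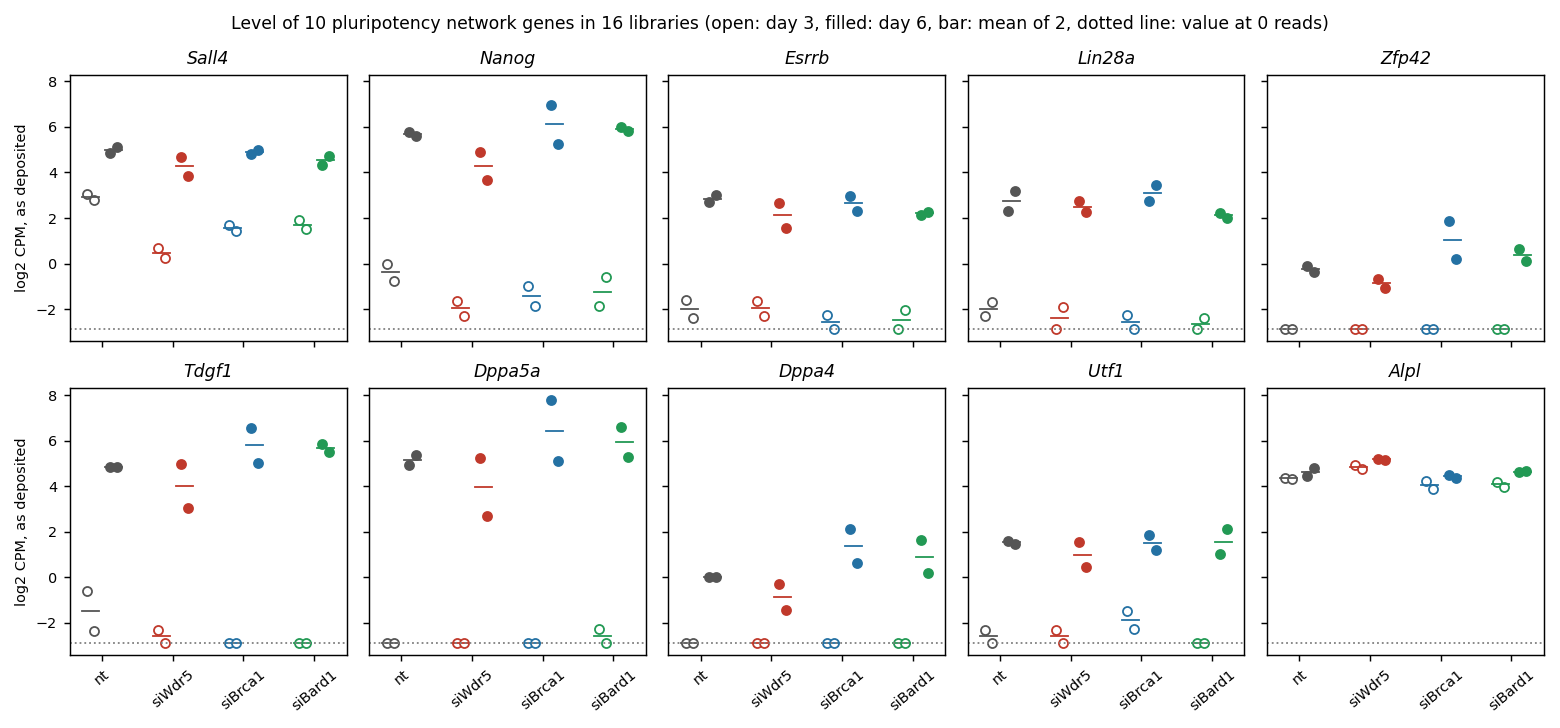
Level of each of the 10 genes in every library, as deposited log2 CPM (vertical axis), for the 4 siRNAs at day 3 (open points) and day 6 (filled points). *Alpl* lies at similar heights on both days, *Sall4* is well above the dotted line (the value at 0 reads) at day 3, and the other 8 genes lie between that line and 0 at day 3 and higher at day 6, bars being the mean of 2 libraries.

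Because the genes differ in transcript length, their levels were set against each other as CPM per kilobase of merged exons. In the day 6 nt control *Dppa5a* stood highest, at 58.6 ± 12.5 CPM per kb (mean ± SD, n = 2 here and below). *Nanog* followed at 23.3 ± 1.94 and *Tdgf1* at 11.0 ± 0.0878. *Alpl* and *Sall4* lay at 6.20 ± 1.02 and 5.73 ± 0.834 CPM per kb, closer to each other than their spread. *Utf1* (2.25 ± 0.143), *Lin28a* (1.73 ± 0.745) and *Esrrb* (1.18 ± 0.184) formed a lower range in which neighbours overlapped for *Utf1* with *Lin28a* and for *Lin28a* with *Esrrb*. *Dppa4* (0.529 ± 0.00112) and *Zfp42* (0.382 ± 0.0608) were lowest. At day 3 the order in the nt control was *Alpl* at 4.99 ± 0.0507, *Sall4* at 1.35 ± 0.194 and *Nanog* at 0.293 ± 0.127 CPM per kb, with no other gene above 0.112.

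**Figure D2:**
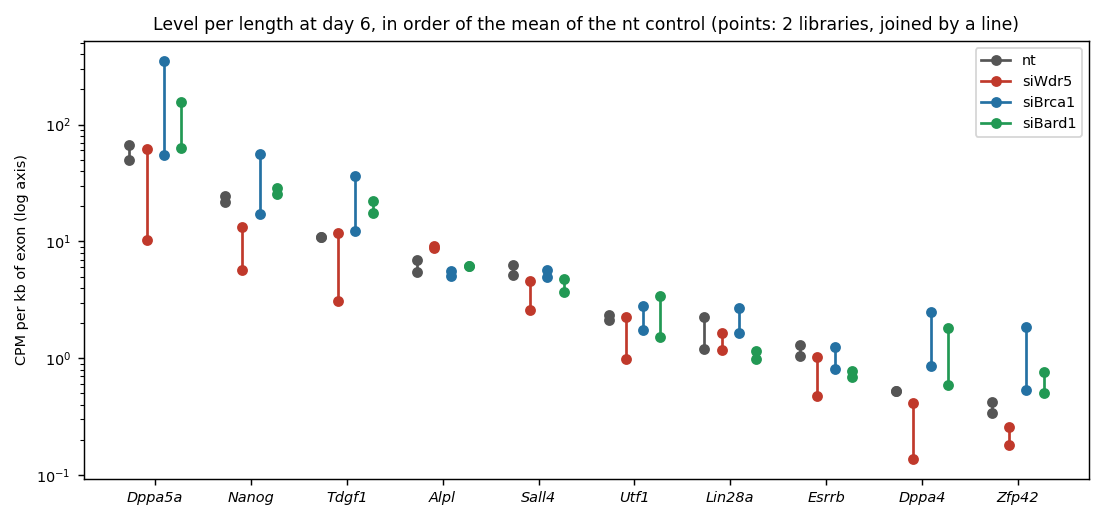
Day 6 levels per transcript length, in CPM per kilobase of merged exons on a log axis, with the genes ordered by their mean in the nt control and 2 points per siRNA joined by a line. The order runs from *Dppa5a* (58.6 CPM per kb in the nt control) to *Zfp42* (0.382), and the *Dppa5a* line is the longest in siWdr5 and in siBrca1.

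Some of these levels rest on sequence that other genes share. Of the 43-base words in the exons of *Dppa5a*, 45.1% also occur in exons of 10 other genes, among them *Dppa5b*, *Dppa5c* and *Pigp*. *Pigp*, the one of these in the table, had 66 to 247 reads per library. For *Dppa4* the share was 35.1% (*Gm14058* and *Gm5501*), for *Zfp42* and *Tdgf1* 10.2% each (annotated pseudogene copies), for *Sall4* 7.92%, for *Nanog* 6.25% and for *Lin28a* 4.89%. *Esrrb*, *Utf1* and *Alpl* shared none. How reads in shared sequence were counted is not given in the sources used here, so the levels of *Dppa5a* and *Dppa4* are uncertain to that extent. *Sall4* also overlaps *Gm14261* on the opposite strand over 526 of 5536 exon bases (9.50%), and that gene had 0 to 8 reads per library.

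*Sall4*, on chromosome 2 (168748332 to 168767943, minus strand, GRCm38), was lower in all 3 knockdowns at day 3. It had 125 and 118 reads (8.24 and 6.73 CPM) in the nt control. In siWdr5 it had 24 and 16 reads (1.49 and 1.06 CPM). Both siBrca1 libraries (42 and 37 reads, 3.10 and 2.60 CPM) and both siBard1 libraries (52 reads each, 3.65 and 2.70 CPM) lay between those of siWdr5 and the nt control without touching either. The log2-fold change against the nt control was −2.44 (SE 0.26) in siWdr5, −1.35 (SE 0.26) in siBrca1 and −1.21 (SE 0.26) in siBard1, with adjusted p of 2.14e-05, 0.000835 and 0.00900. A lower level here can mean fewer *Sall4*-expressing cells or less *Sall4* RNA per cell, which bulk RNA cannot tell apart. The siBard1 call was lost without nt control replicate 1 (−1.07, adjusted p = 0.118) and without siBard1 replicate 2 (adjusted p = 0.0964).

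Compared with one another, the knockdowns differed in how far *Sall4* fell. It was lower in siWdr5 than in siBrca1 by −1.09 (95% interval −1.65 to −0.53, adjusted p = 0.0128) and than in siBard1 by −1.23 (−1.79 to −0.67, adjusted p = 0.0116). Between siBrca1 and siBard1 the difference was −0.14 (−0.70 to 0.42, adjusted p = 0.743). The first of these calls was lost without siWdr5 replicate 2 (−0.87, adjusted p = 0.129) and with only the 4 libraries compared (adjusted p = 0.0595). The second was lost without siWdr5 replicate 1 or 2 (−1.45 and −1.01, adjusted p = 0.0541 and 0.114), without siBard1 replicate 1 (−1.02, adjusted p = 0.0834) and without the filter on low values (adjusted p = 0.0513).

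*Alpl*, on chromosome 4 (137741733 to 137796384, minus strand), took another course. At day 3 it had 30.4 and 27.1 CPM in siWdr5 against 20.2 and 20.0 CPM in the nt control, 18.6 and 14.7 CPM in siBrca1 and 18.2 and 15.6 CPM in siBard1. Both siWdr5 libraries were above every other day 3 library. *Alpl* rose by 0.51 (SE 0.15, adjusted p = 0.0168) in siWdr5 against the nt control, and the changes in siBrca1 (−0.28) and siBard1 (−0.25) did not pass (adjusted p = 0.139 and 0.270), although that of siBrca1 did without siBrca1 replicate 1 (−0.45, adjusted p = 0.0186). It was also higher in siWdr5 than in siBrca1 (0.79, adjusted p = 0.00335) and siBard1 (0.76, adjusted p = 0.00742). The rise against the nt control did not pass when any one of its 4 libraries was left out: the change was 0.52 and 0.50 without nt control replicate 1 and 2 and 0.43 and 0.59 without siWdr5 replicate 1 and 2 (adjusted p = 0.0861, 0.0935, 0.143 and 0.0515). The difference from siBrca1 was lost without siWdr5 replicate 1 (0.71, adjusted p = 0.0704). That from siBard1 was lost without siWdr5 replicate 1 or 2 (0.68 and 0.85, adjusted p = 0.127 and 0.0602) or siBard1 replicate 2 (0.65, adjusted p = 0.0987).

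The day 3 counts of the remaining genes were too low for most differences to be detectable. *Nanog*, on chromosome 6 (122707489 to 122714633, plus strand), had 13 and 8 reads in the nt control, 3 and 1 in siWdr5, 5 and 2 in siBrca1 and 2 and 10 in siBard1. The siWdr5 and siBrca1 libraries lay below both nt control libraries and the siBard1 libraries overlapped them. The changes of −1.58 (SE 0.59, adjusted p = 0.0510), −1.04 (adjusted p = 0.165) and −0.85 (adjusted p = 0.352) did not pass, although that of siWdr5 did with limma-voom on the reads (−2.13, adjusted p = 0.0305), with only the groups compared (adjusted p = 0.0232) and with all 16 libraries in the model (adjusted p = 0.0310). *Tdgf1* had 8 reads in nt control replicate 1 and 1 in replicate 2, 1 read in siWdr5 replicate 1, and none in the other 5 day 3 libraries. *Esrrb*, *Lin28a* and *Utf1* had 0 to 3 reads in each day 3 library.

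In all, 2 of the 7 genes tested passed in siWdr5 at day 3 (*Sall4* lower, *Alpl* higher) where 35.0% of all genes tested passed, 1 in siBrca1 (*Sall4*) where 47.2% passed, and 1 in siBard1 (*Sall4*) where 14.5% passed. Between knockdowns, 2 genes (*Sall4* and *Alpl*) differed between siWdr5 and siBrca1 (15.7% of all genes) and between siWdr5 and siBard1 (8.63%). Between siBrca1 and siBard1 0 differed by limma or limma-voom, 0 of the 7 had an unadjusted p under 0.05, and 21.4% of all genes passed. The median change of the 7 genes was −0.38, −0.59 and −0.64 in siWdr5, siBrca1 and siBard1, against −0.04, 0.00 and −0.02 over all genes tested. These medians are the values of *Lin28a* in siWdr5 and siBard1 (2 and 1 reads against 4 in the nt control) and of *Esrrb* in siBrca1 (1 read against 4). *Nanog*, *Esrrb*, *Lin28a*, *Tdgf1* and *Dppa5a* entered the test through their day 6 levels, so no fall of the set is read from the medians. All 3 comparisons share the nt control libraries.

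**Figure D3:**
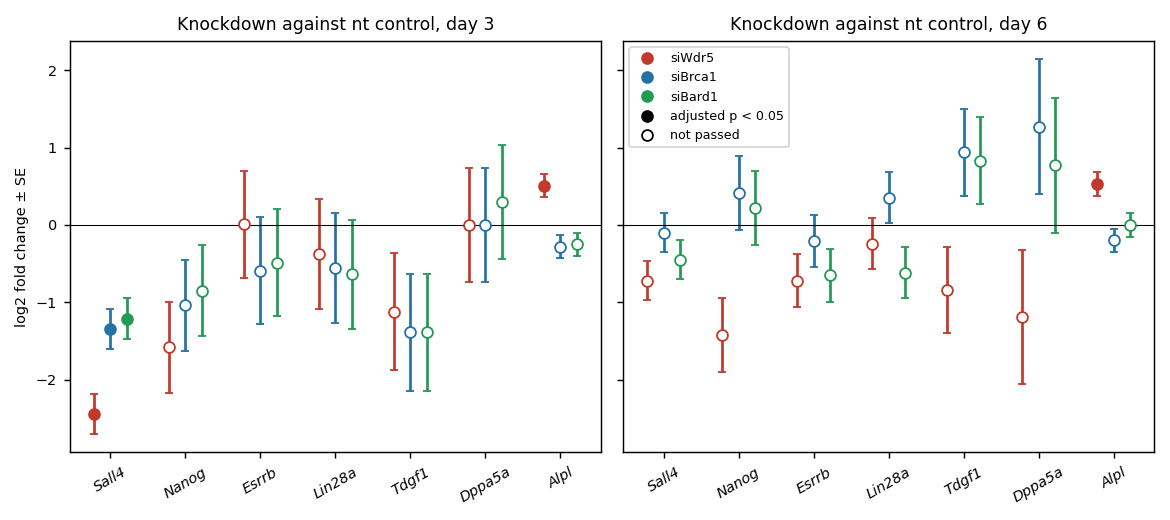
Log2-fold change against the nt control (vertical axis) with its SE for the 7 genes tested (horizontal axis), at day 3 and day 6, with a colour per knockdown and filled points for changes that passed. At day 3 the *Sall4* points lie at −2.44, −1.35 and −1.21 and are all filled, as is *Alpl* in siWdr5 at 0.51, while at day 6 the single filled point is *Alpl* in siWdr5, at 0.53.

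Other measurements moved with the day 3 levels, and their part in them was not tested. Beside the counts below, 18.3%, 25.4% and 8.67% of all genes tested rose in siWdr5, siBrca1 and siBard1, and 16.8%, 21.8% and 5.87% fell. The 9 proliferation genes summed to 1511 and 1497 CPM in the nt control, 857 and 937 in siWdr5, 848 and 451 in siBrca1, and 1195 and 1270 in siBard1. All 9 fell in siWdr5 and in siBrca1 and 1 fell in siBard1, the count in siWdr5 being 2 and 4 without siWdr5 replicate 1 and 2 and 5 without nt control replicate 1. The 13 fibroblast markers summed to 6124 and 7052 CPM in the nt control, 11907 and 12260 in siWdr5, 10419 and 9224 in siBrca1, and 9109 and 7869 in siBard1, with 10, 6 and 2 of them higher and 0, 1 and 1 lower. The 18 epithelial markers summed to 337 and 342 CPM in the nt control, and below that in all knockdowns (181 to 272 CPM). Of the 16 tested, 5, 4 and 1 fell and 1, 3 and 1 rose in siWdr5, siBrca1 and siBard1, with 2 falling in siWdr5 without nt control replicate 1 or siWdr5 replicate 1. Beside *Alpl*, the osteoblast markers *Sp7*, *Spp1*, *Runx2* and *Col11a1* rose in siWdr5 (by 1.67, 1.01, 0.71 and 0.43) and in siBrca1 (by 1.14, 0.87, 0.57 and 0.82). *Runx2* rose by 0.35 in siBard1. *Sp7*, the defining factor of this list, had reads in every library, and *Bglap*, *Ibsp* and *Dmp1*, also on the list, were not among the 18990 genes.

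Between day 3 and day 6 in the nt control the network genes other than *Alpl* were higher, given here as ratios of summed reads per scaled library size. *Sall4* rose 4.27-fold (exact 95% counting interval 3.69 to 4.95) to 28.5 and 35.0 CPM. *Nanog* rose 81.4-fold (53.0 to 132) to 55.3 and 49.2 CPM. *Tdgf1* rose 105-fold (54.8 to 230) to 29.0 and 28.6 CPM. *Dppa5a*, with 0 reads at day 3, reached 30.8 and 41.7 CPM, at least 395-fold above a floor of 3 reads over the group. The ratios for *Esrrb* (58.1-fold, 22.3 to 216), *Lin28a* (56.5-fold, 21.7 to 210) and *Utf1* (90.1-fold, 15.6 to 3609) rest on 4, 4 and 1 reads at day 3. *Dppa4* and *Zfp42*, at 0 reads on day 3 and 22 and 18 reads on day 6, were at least 9.57-fold and 7.83-fold higher. The ratio for *Alpl* was 1.24 (1.11 to 1.39).

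These genes were also higher at day 6 than at day 3 in every knockdown. *Nanog* was 146-fold higher at day 6 than at day 3 in siWdr5 (56.8 to 537), 303-fold in siBrca1 (147 to 755) and 167-fold in siBard1 (95.5 to 324). *Tdgf1* was 510-fold higher in siWdr5 (91.1 to 20158, from 1 read), at least 551-fold in siBrca1 and at least 562-fold in siBard1. *Dppa5a* was at least 184-fold higher in siWdr5, at least 1061-fold in siBrca1, and 2053-fold in siBard1 (368 to 81107, from 1 read). *Esrrb* was 31.6-fold, 169-fold and 75.7-fold higher in siWdr5, siBrca1 and siBard1, and *Lin28a* 83.4-fold, 249-fold and 140-fold, each from 1 to 4 reads (intervals from 12.1 to 9862 over the 6 ratios). *Utf1* was 55.1-fold (9.58 to 2206), 19.0-fold (7.09 to 71.5) and at least 36.9-fold higher. *Zfp42* was at least 4.08-fold, 19.3-fold and 12.6-fold higher, and *Dppa4* at least 4.08-fold, 24.2-fold and 19.7-fold.

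By limma, 6 of the 7 genes tested were higher at day 6 in the nt control and in siWdr5 and all 7 in siBrca1 and siBard1, where 19.0%, 14.9%, 20.5% and 17.0% of all genes tested were higher. These counts carry no weight for *Nanog*, *Esrrb*, *Lin28a*, *Tdgf1* and *Dppa5a*, which passed the filter on low values through their day 6 levels and so had to differ. *Sall4* and *Alpl* passed it on either day. *Sall4* rose by 2.06, 3.78, 3.31 and 2.82 in the nt control, siWdr5, siBrca1 and siBard1 (SE 0.26 each, adjusted p = 1.77e-05, 1.5e-07, 1.49e-07 and 1.44e-06). *Alpl* rose by 0.38 in siBrca1 and by 0.55 in siBard1 (adjusted p = 0.0400 and 0.00851), and changes of 0.30 in the nt control (adjusted p = 0.104) and 0.32 in siWdr5 (adjusted p = 0.121) did not pass. The *Alpl* call in siBrca1 was lost without day 3 replicate 2 (0.22, adjusted p = 0.321) or day 6 replicate 1 (0.31, adjusted p = 0.171), and under 4 other settings, with adjusted p of 0.0514 to 0.181. That in siBard1 was lost without day 3 replicate 2 (0.44, adjusted p = 0.0891), and the nt control change passed without day 6 replicate 1 (0.47, adjusted p = 0.0458).

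The rise of *Sall4* was steeper in siWdr5 and siBrca1 than in the nt control. Its knockdown change at day 6 minus that at day 3 (the interaction) was 1.72 (SE 0.36, adjusted p = 0.0289) for siWdr5 and 1.25 (SE 0.36, adjusted p = 0.0240) for siBrca1, and 0.76 (SE 0.36, adjusted p = 0.263) for siBard1. The median of all genes tested was 0.12 for siWdr5. *Sall4* was the 1 gene of the 7 that passed in siWdr5, where 4.43% of all genes did, and the 1 that passed in siBrca1, where 20.5% did. In siBard1 0 passed by limma or limma-voom (1 had an unadjusted p under 0.05), against 0.0499% of all genes. The siWdr5 interaction did not pass without nt control day 3 replicate 1 or 2 (1.58 and 1.86), nt control day 6 replicate 1 (1.57), siWdr5 day 3 replicate 1 or 2 (1.94 and 1.50) or siWdr5 day 6 replicate 1 (1.30), with adjusted p of 0.0643 to 0.109, nor without the trend, with a pseudocount of 1 CPM or by limma-voom (adjusted p = 0.0697, 0.0513 and 0.0605). That of siBrca1 did not pass without nt control day 3 replicate 1 (1.10), nt control day 6 replicate 1 (1.10), siBrca1 day 3 replicate 2 (1.13) or siBrca1 day 6 replicate 2 (1.16), with adjusted p of 0.0598 to 0.0991, nor by limma-voom (adjusted p = 0.0546).

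At day 6 both siWdr5 libraries lay below both nt control libraries for 5 of the 10 network genes. How many of all genes lay apart in this way was not counted, so this is a description only. Of the 7 genes tested only *Alpl* passed, against 21.8% of all genes, and it was higher. That share rests on 3060 genes, which became 38 without siWdr5 replicate 2, 304 and 731 without nt control replicate 2 and 1, and 2394 without siWdr5 replicate 1. *Alpl* had 36.5 and 35.3 CPM in siWdr5 against 22.1 and 27.9 CPM in the nt control, without overlap, and rose by 0.53 (SE 0.15, adjusted p = 0.0280). It was also higher in siWdr5 than in siBrca1 (22.7 and 20.6 CPM; 0.73, adjusted p = 0.0412). In siBard1 it had 24.7 and 24.9 CPM. The *Alpl* rise against the nt control did not pass after leaving out any 1 of its 4 libraries (0.36 and 0.70 without nt control replicate 1 and 2, 0.51 and 0.56 without siWdr5 replicate 1 and 2, adjusted p = 0.201, 0.0619, 0.0939 and 0.142), without the trend in the moderation (adjusted p = 0.0571), or after centring each library on its median gene or quantile normalization (adjusted p = 0.0515 and 0.0787). The difference from siBrca1 was lost without siWdr5 replicate 1 or 2 (0.71 and 0.75, adjusted p = 0.0871 and 0.257), without siBrca1 replicate 2 (0.66, adjusted p = 0.0724), without the trend (adjusted p = 0.107) and with quantile normalization (adjusted p = 0.0514).

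Among the nuclear factors, *Nanog* had 29.7 and 12.7 CPM in siWdr5 at day 6 against 55.3 and 49.2 CPM in the nt control. Both siWdr5 libraries lay below both nt control libraries, and the change of −1.42 (SE 0.48, 95% interval −2.48 to −0.36) had an adjusted p of 0.0574. It passed without siWdr5 replicate 1 (−2.03, adjusted p = 0.0364) and with only the 4 libraries compared (adjusted p = 0.00434). *Sall4* had 25.5 and 14.3 CPM against 28.5 and 35.0 CPM in the nt control, also without overlap (−0.72, SE 0.25, adjusted p = 0.0591). It passed without siWdr5 replicate 1 (−1.14, adjusted p = 0.0146) and under 3 other settings (adjusted p = 0.0330 to 0.0446). *Esrrb* had 6.20 and 2.86 CPM against 6.32 and 7.89 CPM, replicate 1 just below the nt control (−0.72, SE 0.34, adjusted p = 0.152), passing without siWdr5 replicate 1 (−1.26, adjusted p = 0.0349).

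For *Tdgf1* and *Dppa5a* siWdr5 replicate 2 was low and replicate 1 close to the nt control. *Tdgf1* had 31.2 and 8.17 CPM against 29.0 and 28.6 CPM in the nt control (−0.84, adjusted p = 0.292), and *Dppa5a* 38.2 and 6.34 CPM against 30.8 and 41.7 CPM (−1.19, adjusted p = 0.343). The siWdr5 libraries therefore fell on both sides of the nt control for *Tdgf1* and overlapped it for *Dppa5a*. Without siWdr5 replicate 1 *Tdgf1* passed (−1.80, adjusted p = 0.0400), and without replicate 2 the sign turned for both genes (0.11 and 0.09). *Lin28a* had 6.55 and 4.70 CPM against 4.80 and 9.01 CPM (−0.24, adjusted p = 0.617), with the sign turned without nt control replicate 2 (0.20). Below the filter, *Zfp42* had 0.483 and 0.344 CPM in siWdr5 (7 and 9 reads) against 0.800 and 0.638 CPM in the nt control (10 and 8 reads), and *Dppa4* 0.689 and 0.229 CPM (10 and 6 reads) against 0.880 and 0.877 CPM (11 reads each). Both siWdr5 libraries lay below the nt control for these genes, on few reads. *Utf1* had 2.76 and 1.22 CPM against 2.88 and 2.63 CPM, overlapping the nt control.

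In siBrca1 and siBard1 the day 6 means of *Dppa5a*, *Tdgf1* and *Nanog* lay above the nt control, none of them past the test, with a wide spread between replicates in siBrca1. *Dppa5a* had 218 and 34.3 CPM in siBrca1 and 97.3 and 38.7 CPM in siBard1, against 30.8 and 41.7 CPM in the nt control. *Tdgf1* had 94.4 and 32.3 CPM in siBrca1 and 57.6 and 45.7 CPM in siBard1, above both nt control libraries (29.0 and 28.6 CPM) in each. *Nanog* had 126 and 38.1 CPM in siBrca1, on both sides of the nt control, and 64.5 and 56.9 CPM in siBard1, just above it. The changes in siBrca1 were 1.27 for *Dppa5a*, 0.94 for *Tdgf1* and 0.41 for *Nanog* (adjusted p = 0.731, 0.690 and 0.846). In siBard1 they were 0.77, 0.83 and 0.22 (adjusted p = 0.733, 0.542 and 0.875). *Sall4*, lower in both at day 3, had 27.7 and 31.2 CPM in siBrca1, overlapping the nt control (−0.10, 95% interval −0.65 to 0.44, adjusted p = 0.935), and 20.3 and 26.2 CPM in siBard1, below it. *Esrrb* had 7.63 and 4.85 CPM in siBrca1 and 4.21 and 4.71 CPM in siBard1 against 6.32 and 7.89 CPM in the nt control. *Lin28a* had 6.59 and 10.8 CPM in siBrca1 and 4.59 and 3.91 CPM in siBard1 against 4.80 and 9.01 CPM. Both genes overlapped the nt control in siBrca1 and lay below it in siBard1, which with 2 libraries a group is a description and not a test.

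No gene of the 7 passed in siBrca1 or siBard1 at day 6. By limma 0 passed in each, 0 had an unadjusted p under 0.05 in each, and limma-voom gave 0 in each, while 0% of all genes passed in siBrca1 and 0.0784% in siBard1. Between knockdowns at day 6, 1 gene (*Alpl*) passed for siWdr5 against siBrca1 (2.85% of all genes). For siWdr5 against siBard1 0 passed by limma or limma-voom, with 4 at an unadjusted p under 0.05 (0.592% of all genes), and for siBrca1 against siBard1 0 passed by either, with 1 at an unadjusted p under 0.05 (0% of all genes). *Nanog* was lower in siWdr5 than in siBrca1 by −1.83 (95% interval −2.89 to −0.77, adjusted p = 0.0619), and this passed without siBrca1 replicate 2 (−2.69, adjusted p = 0.0244) with only the groups compared (adjusted p = 0.0325) and with all 16 libraries in the model (adjusted p = 0.0345). *Zfp42* and *Dppa4*, below the filter, lay above both nt control libraries in each, at 3.47 and 1.01 CPM and 4.16 and 1.42 CPM in siBrca1 (15 to 48 reads) and at 1.43 and 0.942 CPM and 3.01 and 0.989 CPM in siBard1 (19 to 40 reads). With all genes tested their changes in siBrca1 were 1.26 and 1.35 (adjusted p = 0.563 and 0.601). *Utf1* had 3.47 and 2.16 CPM in siBrca1 and 1.88 and 4.19 CPM in siBard1, overlapping the nt control.

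Replicates differed in the same direction for most network genes in siWdr5 and siBrca1 at day 6. In siWdr5 all 10 were higher in replicate 1 than in replicate 2, by a median of 1.09 on the log2 scale (0.05 to 2.57). In siBrca1 8 of 10 were higher in replicate 1, with a median of 1.06 (−0.70 to 2.66), the exceptions being *Sall4* (−0.17) and *Lin28a* (−0.70). In siBard1 6 of 10 and in the nt control 5 of 10 were higher in replicate 1, with medians of 0.20 and −0.15. The median difference over all genes tested was −0.09 in siWdr5 and −0.01 in siBrca1, and 95% of genes differed by less than 0.71 and 0.86. *Dppa5a* differed most in siWdr5 and siBrca1 (2.57 and 2.66), by 1.33 in siBard1 and by −0.44 in the nt control. *Alpl* differed by 0.05, 0.14, −0.01 and −0.34 in siWdr5, siBrca1, siBard1 and the nt control. Over the same pairs the 13 fibroblast markers summed to 7703 and 10847 CPM in siWdr5 and 4619 and 5267 CPM in siBrca1, and the 18 epithelial markers to 751 and 634 CPM and to 795 and 878 CPM. The part of these markers in the replicate differences was not tested.

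**Figure D4:**
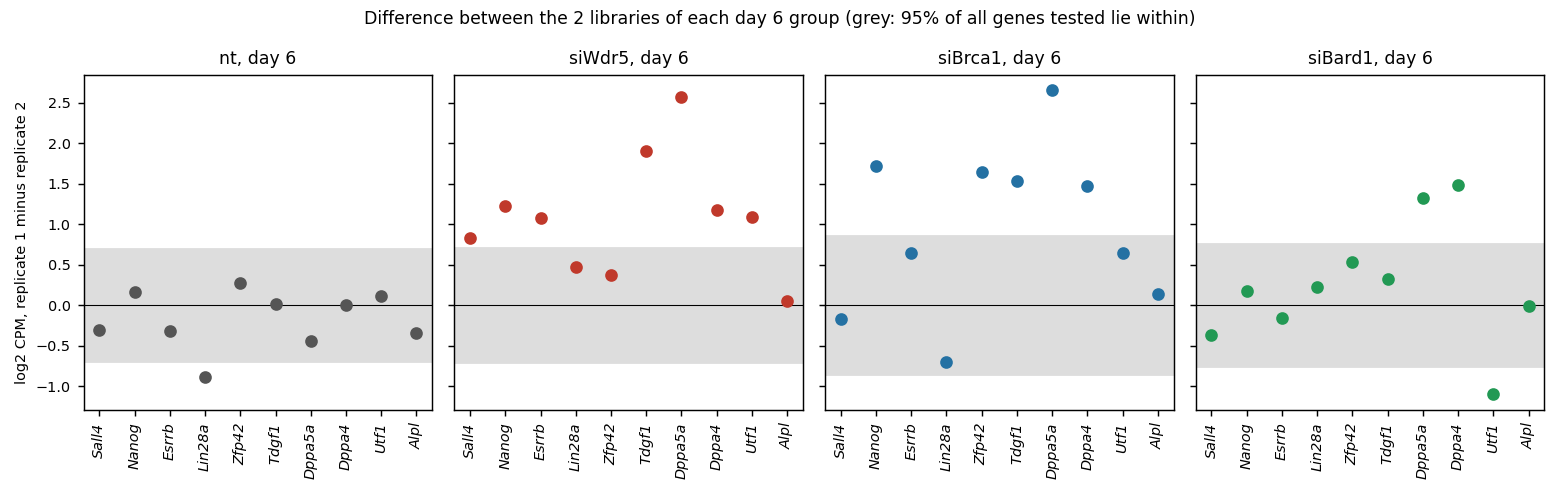
Replicate 1 minus replicate 2 at day 6 on the log2 CPM scale for each of the 10 genes, by siRNA, with a grey band that holds 95% of all genes tested. In siWdr5 all 10 points are above 0, up to 2.57 for *Dppa5a*, and in siBrca1 8 of 10 are, up to 2.66.

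Cell type markers also moved with the day 6 levels, and their part in those levels was not tested either. From day 3 to day 6 in the nt control 13 of the 16 epithelial markers tested were higher and 1 lower (*Cldn6* by 6.14, *Crb3* by 5.74, *Cldn4* by 5.48 and *Krt8* by 5.21 higher), 7 of which, the first 3 of these included, passed the filter through their day 6 levels and so had to differ. Of the 9 that reached it on day 3 levels 6 rose and 1 fell, and the sum of all 18 went from 337 and 342 CPM to 803 and 1077 CPM. At day 6 their sum was 751 and 634 CPM in siWdr5, where 8 fell (0 without nt control replicate 2 or siWdr5 replicate 2, 4 without nt control replicate 1), 795 and 878 CPM in siBrca1 and 606 and 780 CPM in siBard1. Of the 13 fibroblast markers 6 rose and 2 fell between the days in the nt control, where 19.0% and 27.1% of all genes tested did. *Lum* (4.19), *Dcn* (3.25) and *Postn* (1.62) were among those that rose, and *Col1a1* fell by 1.83. At day 6 the fibroblast markers summed to 4345 and 4264 CPM in the nt control, 7703 and 10847 CPM in siWdr5, 4619 and 5267 CPM in siBrca1 and 6219 and 6378 CPM in siBard1. Of all genes tested 16.1% rose and 5.70% fell in siWdr5 at day 6. In siWdr5 *Col1a1*, *Col1a2* and *Pdgfrb* were among 4 that rose (2.05, 1.27 and 1.08) and *Postn* fell by 1.11, with 1 rising without siWdr5 replicate 2. The osteoblast markers *Sp7* and *Runx2* rose in siWdr5 at day 6 (1.48 and 0.95) while *Spp1* fell by 0.65, and none of these passed without nt control replicate 2 or siWdr5 replicate 2. The proliferation sum was 945 and 1001 CPM in the nt control and 918 to 1187 CPM in the knockdowns.

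The genes most like each network gene were named by the highest Pearson correlation of log2 CPM over the 16 libraries. The libraries form separate clusters by day, so values within a day are given as well, over 8 libraries that share their normalization, and all are descriptions. *Nanog* was closest to *Tdgf1* (0.991, and 0.94 within day 6 and 0.67 within day 3), *Taf7*, a subunit of the general transcription factor TFIID (0.990, 0.98 and 0.82), and *Nlrp12* (0.989, 0.88 and 0.80). *Dppa5a* was closest to *Mylpf* (0.9960, 0.96 and 0.35), *Calcoco2* (0.994, 0.95 and 0.59) and *Dppa3*, the maternal factor STELLA (0.991, 0.86 and −0.22). *Tdgf1* was closest to *Nanog*, *Calcoco2* (0.990, 0.92 and 0.52) and *Dppa3* (0.989, 0.88 and 0.56). *Esrrb* was closest to *Prss8*, an epithelial membrane protease (0.990, 0.83 and 0.85), the transcription factor gene *Tfap2c* (0.989, 0.69 and 0.78) and the polarity gene *Crb3* (0.987, 0.86 and 0.40). *Lin28a* was closest to the iodide transporter gene *Slc5a5* (0.985, 0.73 and 0.77), *Tfap2c* (0.981, 0.78 and 0.28) and the clathrin adaptor gene *Ap1m2* (0.981, 0.42 and 0.26). *Sall4* was closest to *Bex4* (0.985, 0.83 and 0.93) and to the epithelial protease inhibitor genes *Spint1* (0.984, 0.69 and 0.95) and *Spint2* (0.983, 0.78 and 0.93). *Alpl* had lower values over the 16 libraries, to *Gdf10*, *Crocc2* and the collagen gene *Col27a1* (0.922, 0.904 and 0.903). Its values within day 6 (0.87, 0.81 and 0.87) and within day 3 (0.94, 0.96 and 0.90) did not stand apart from those of the other genes.

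Other genes of the network were taken from a list of 40, of which 28 were tested. At day 3 more of them fell than rose in each knockdown: 11 against 3 in siWdr5, 14 against 5 in siBrca1 and 5 against 2 in siBard1, with medians of −0.41, −0.84 and −0.57 (−0.04, 0.00 and −0.02 over all genes tested). Of all genes tested 16.8%, 21.8% and 5.87% fell and 18.3%, 25.4% and 8.67% rose. Medians stayed below 0 with other scalings and without any single library. In siWdr5 the largest changes were in *Tdh* (−1.99), which encodes the threonine dehydrogenase of mouse embryonic stem cells, the nuclear receptor gene *Nr5a2* (−1.91), *Lin28b* (−1.85), a relative of *Lin28a*, and *Dnmt3l* (1.83), a cofactor of DNA methylation. In siBrca1 they were in the zinc finger gene *Zscan10* (−2.44), *Tdh* (−2.32), *Nr0b1* (−2.23), which encodes DAX1, and *L1td1* (−2.19). In siBard1 *Nr0b1* (−1.88), *Lin28b* (−1.09) and *L1td1* (−0.90) were among those that fell. The 2 that rose in siBard1, *Klf2* (0.81) and *Tbx3* (0.55), also rose in siWdr5 (0.91 and 1.06) and in siBrca1 (1.57 and 0.82). In siWdr5 7 were lower without nt control replicate 1 or 2 and 6 without siWdr5 replicate 1 or 2. In siBard1 the count was 0 and 3 without nt control replicate 1 and 2, and 1 and 2 without siBard1 replicate 1 and 2.

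From day 3 to day 6 in the nt control 18 of the 28 were higher and 2 lower, where 19.0% of all genes tested were higher and 27.1% lower. Of the 18, 6 passed the filter on low values through their day 6 levels and so had to differ, among them the genes with the largest changes, *Dppa3* (6.17), *Sox15* (3.93), *Fbxo15* (2.74) and *Gdf3* (2.74). Of the 22 that reached the filter on their day 3 levels alone 12 rose and 2 fell. At day 6 in siWdr5 4 were lower (5.70% of all genes tested), *Dppa3* (−1.50), *Sox15* (−1.05), *Tdh* (−0.79) and *Zfp296* (−0.79), and 1 was higher, with a median of −0.51 (0.08). Without nt control replicate 1 or 2 the count lower was 0 and 1, and without siWdr5 replicate 1 or 2 it was 7 and 0. The median of the 28 at day 6 was 0.02 in siBrca1 and 0.01 in siBard1 (0.03 and 0.06 over all genes tested).

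Genes of the LIF pathway, through which LIF in the medium signals to STAT3, rose more often than they fell in siWdr5. Beside the counts below for the other groups, 25.4% of all genes tested rose in siBrca1 at day 3. In siBard1 8.67% rose and 5.87% fell at day 3, and in the nt control 27.1% fell from day 3 to day 6. Of the 11 tested 7 rose at day 3, where 18.3% of all genes tested rose, with a median of 0.57 (−0.04 over all genes), among them the kinase genes *Jak2* (0.88) and *Jak1* (0.82), *Stat3* (0.74) and the receptor subunit gene *Il6st* (0.67). At day 6 6 rose and 1 fell (16.1% and 5.70% of all genes tested), with *Lifr* at 1.55 and *Il6st* at 1.52. The day 6 count higher was 3 without nt control replicate 2 and 0 without siWdr5 replicate 2. In siBrca1 at day 3 3 rose, and in siBard1 2 rose and 1 fell (0 and 0 without nt control replicate 1). In the nt control 4 fell from day 3 to day 6, with *Il6st* at −1.24, and 2 did without nt control day 3 replicate 1 or 2 or with quantile normalization.

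The remaining lists showed changes in both directions. Beside their day 3 counts, 18.3%, 25.4% and 8.67% of all genes tested rose in siWdr5, siBrca1 and siBard1. In the same order 16.8%, 21.8% and 5.87% fell. Counts near these shares are not read as results about a list. Of the 11 genes of the WNT response tested, which GSK3 inhibition switches on, 2 rose and 3 fell at day 3 in siWdr5 and in siBrca1, and 1 rose and 2 fell in siBard1. Without nt control replicate 1 none fell in siWdr5 or siBard1. The feedback genes *Nkd1* and *Rnf43* rose in siWdr5 (1.25 and 1.06) and in siBrca1 (1.46 and 1.42) while *Lef1* fell (−0.89 and −1.34). *Sp5* had the largest change of those passing in siBrca1 (−2.62). Of 18 genes for NuRD subunits and for partners of SALL4 and NANOG, 3 fell in siWdr5 at day 3 (*Wdr5* itself, *Rif1* at −0.74 and *Arid3b* at −0.63), 5 in siBrca1 and 2 in siBard1, and with quantile normalization 8, 9 and 5 fell. Without that normalization none of the 18 rose in siWdr5 or siBrca1 at day 3. At day 6 in siWdr5 4 rose, where 16.1% of all genes tested did, while with quantile normalization 3 fell and none rose. From day 3 to day 6 in the nt control 10 of these 18 fell and 1 rose (8 and 5 with quantile normalization), where 27.1% of all genes tested fell and 19.0% rose. Of the 12 genes of the let-7 and LIN28 axis tested, 1 rose and 4 fell in siWdr5 at day 3, 3 rose and 2 fell in siBrca1, and 1 rose and 2 fell in siBard1, and *Lin28b* had the largest fall of those passing in each (−1.85, −2.07 and −1.09).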

How the data were processed

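The data are RNA sequencing libraries of reprogramming MEFs, 16 columns of 1 deposited table, in 8 groups of 2 taken from the labels. After ribosomal RNA depletion and paired-end sequencing the authors aligned reads to mm10 (GRCm38) with STAR 2.5.2b and computed log2 CPM with edgeR 3.20.9. These deposited log2 values are scaled between libraries and include a prior count. The authors called genes with DESeq2 on counts that are not used here. The read counter, annotation, strand setting and low-count filter are not given in the sources used here.

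Reads were recovered from the values: 100% of those under 5000 reads came out whole within 0.01. limma 3.58.1 in R 4.3.3 (trend, 1 mean per group, two-sided, Benjamini-Hochberg over the 14028 genes whose log2 CPM averaged 0 or more) was fitted to the 8 libraries of a day, or to all 16 for time and interaction, and was checked on simulated data. With 2 libraries a group, p-values rest on a spread pooled over groups. Statements that libraries overlapped or lay above or below the nt control describe 2 libraries against 2. The share of all genes that lay apart in this way was not counted. Gene coordinates, exon lengths, overlaps and 43-base words come from GENCODE vM21, and promoter windows from RefSeq. The 10 genes and all lists were chosen with earlier results of these data known. Named genes are the 10, the siRNA targets, genes sharing sequence with them, the 3 most correlated genes per tested member, and up to 4 passing genes with the largest change per list and comparison. *Klf2* and *Tbx3* are named in addition, as list genes that rose at day 3 in every knockdown.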

Additional observations from a re-analysis of the deposited data

Results flagged for a closer look

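The knockdown change of *Sall4* differed between the days in siWdr5 (1.72 on the log2 scale, day 6 change minus day 3 change, limma adjusted p = 0.0289) and in siBrca1 (1.25, adjusted p = 0.0240). Both were picked out because the difference between the days passed its own test. The first did not pass in 9 of 18 alternatives (adjusted p from 0.00576 to 0.109) and the second in 5 of 18 (0.0162 to 0.0991). *Wdr5* itself, at −1.31 in siWdr5 at day 3, was at −0.27 at day 6 (adjusted p = 0.189), and *Brca1* in siBrca1 went from −1.57 to 0.01. Between the days *Wdr5* changed by −0.47 in the nt control and 0.57 in siWdr5 (limma adjusted p = 0.00539 and 0.00323). *Brca1* changed by −1.09 in the nt control and 0.49 in siBrca1 (limma adjusted p = 0.000709 and 0.0691). The part of these changes in the *Sall4* difference was not tested.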

How the results depend on the processing

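Of 309 alternative counts of network genes passing over the 19 comparisons 249 stayed within 1.5 times the reported count and 60 did not. With the added threshold of 1 on the log2-fold change, 1 gene passed at day 3 in siWdr5, in siWdr5 against siBrca1 and in siWdr5 against siBard1, and 0 passed at day 6 in siWdr5 and in siWdr5 against siBrca1. With only the groups compared, 1 passed in siWdr5 against siBrca1 at day 3, 3 in siWdr5 at day 6 and 2 in siWdr5 against siBrca1 at day 6. Without the filter 1 passed in siWdr5 against siBard1 at day 3. With all 16 libraries, 2, 3 and 1 passed at day 6 in siWdr5, siWdr5 against siBrca1 and siWdr5 against siBard1. Without the trend 0 passed in siWdr5 and in siWdr5 against siBrca1 at day 6 and in the siWdr5 interaction. At day 6 in siWdr5, 0 passed with median centring and 0 with quantile normalization, which also left 0 in siWdr5 against siBrca1. By limma-voom 2 passed in siWdr5 at day 6 and 0 in the siWdr5 and siBrca1 interactions, and with a pseudocount of 1 CPM 0 passed in the siWdr5 interaction. With the replicate number as a block, 2, 4 and 1 passed at day 6 in siWdr5, siWdr5 against siBrca1 and siWdr5 against siBard1, and 2 in the siBrca1 interaction. Under the block *Nanog* passed in siWdr5 at day 3 and day 6 and in siWdr5 against siBrca1 at day 6 (adjusted p = 0.0461, 0.0107 and 0.0191). The replicates came from independent experiments, but the labels do not say that a number marks the same experiment in every group. Deviations of same-numbered replicates from their group means correlated across genes at −0.09 to 0.07 at day 3 and −0.07 to 0.26 at day 6, so they were not taken as pairs. Of the 309 alternative counts over all genes tested, 192 stayed within 1.5 times and 117 did not, the block giving 48 in place of 11 for siBard1 and 833 in place of 400 for siWdr5 against siBrca1 at day 6. With a stricter filter at an average log2 CPM of 2, which leaves fewer genes, 2 passed over time in the nt control and siWdr5 and 3 in siBrca1 and siBard1. Unless stated, the cause was not tested.

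Without single libraries the counts at day 3 were 1 to 1 in siWdr5, 1 to 2 in siBrca1, 0 to 1 in siBard1, 1 to 2 in siWdr5 against siBrca1 and 0 to 1 in siWdr5 against siBard1. At day 6 they were 0 to 4 in siWdr5 and 0 to 1 in siWdr5 against siBrca1, and 6 to 7 over time in the nt control, siBrca1 and siBard1. They were 0 to 1 in the siWdr5 interaction and 0 to 2 in that of siBrca1. The sign turned for some members at day 6 when 1 library was left out. In siBrca1 the range was −0.25 to 0.05 for *Sall4* (positive without nt control replicate 2), and −0.45 to 1.27 for *Nanog* and −0.06 to 2.60 for *Dppa5a* (negative without siBrca1 replicate 1). In siWdr5 it was −0.69 to 0.20 for *Lin28a* (positive without nt control replicate 2), and −1.80 to 0.11 for *Tdgf1* and −2.47 to 0.09 for *Dppa5a* (positive without siWdr5 replicate 2). At day 3, 8 of the 10 genes together had 26 reads or fewer per library, which limits the precision of their values.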

Other observations

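Markers of cell types that the cultures could also hold were followed beside the network genes. Of the trophoblast markers 3 were tested, and *Tfap2c* (3.43) and *Ascl2* (2.42) rose from day 3 to day 6 in the nt control. *Tfap2c* fell by 1.06 in siBrca1 at day 3. Of the germ cell markers 2 were tested and *Kit* fell at day 3 in siWdr5 (−0.77), siBrca1 (−2.38) and siBard1 (−1.21). The extraembryonic endoderm genes *Sox7* and *Gata6* rose in siWdr5 at day 3 (0.97 and 0.80), and *Sox7* rose (2.24) while *Lama1* fell (−1.41) between the days in the nt control. Of 4 macrophage markers tested *Csf1r* rose in siWdr5 at day 3 and day 6 (1.81 and 1.33) and in siBrca1 at day 3 (1.06). *Cd14* went the other way in siWdr5 at day 6 (−1.58), and *Cd68* rose in siBrca1 at day 3 (1.07). Of 2 endothelial markers *Tek* rose in siWdr5 at day 6 (1.02). Of 3 neural markers *Tubb3* and *Map2* fell (−1.23 and −1.09) and *Nes* rose (0.93) in siBrca1 at day 3. *Pigp*, which shares sequence with *Dppa5a*, rose by 1.15 between the days in the nt control (adjusted p = 0.000667) and fell by 0.78 in siWdr5 at day 6 (adjusted p = 0.0355).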
